A study of Homo sapiens with 6 samples.

Results

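The E2F and RB family was followed here through 10 transcripts, those of the E2F transcription factors E2F1 to E2F8 and of the pocket proteins RB1 and RBL1 (p107). They were taken from the table by gene symbol, each matched 1 row, and all 10 of the 10 passed the filter on low values among 14621 tested of 61280 rows. The cells were MDA-MB-231, an established line from a human breast cancer without hormone receptors or HER2 amplification, in which p53 is mutant and CDKN2A is deleted. One group had received 20 Gy of X-rays and was cultured for 24 h afterwards (3 libraries), and the other was not treated (3 libraries), with no culture time given for it. Both groups were the same line in the same serum-supplemented medium, and no allele or agent other than the X-rays separated them. The labels do not say whether the replicates came from separate cultures, so the p-values measure the spread between these libraries, which may be technical.

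E2F factors bind DNA as partners of DP proteins and set the transcription of genes needed to enter and complete S phase. RB1 and RBL1, with their relative RBL2 (p130), bind E2Fs in resting or arrested cells and hold their targets down, and cyclin-dependent kinases release them by phosphorylating the pocket proteins. E2F1, E2F2 and E2F3 are the classical activators and bind RB1. E2F4 and E2F5 act mainly as repressors with RBL1 and RBL2, E2F6 represses without pocket proteins as part of a Polycomb complex, and E2F7 and E2F8 are atypical repressors that bind DNA without a DP partner. Several family members are themselves E2F targets, so a family-wide account of their transcripts also touches the feedback of the system. The control of E2F activity through pocket protein phosphorylation is not visible in transcript levels.

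The proximal promoters of 5 members are printed because the 3 spellings of E2F-type motifs given below are present in some of them and absent from others. The windows run from 250 bases before to 50 after a RefSeq transcript start (build GRCh38.p14, 5′ to 3′ along the gene). Entries were found for 8 of the 10 members; E2F5 and E2F8 had none, and the entry for RB1 lies inside the gene, away from its first exon, and is not read here. Capitals mark 3 E2F-type motifs of 7 bases on either strand. They are TTTGGCG, found in 1.92% of all promoter entries, the spelling TTTCGCG, found in 1.32%, and the spelling TTTCCCG, found in 4.29%. None of the marked matches overlap. The 3 spellings were chosen after the promoters had been read. No other spelling was searched for, so a window without capitals may still hold other E2F-type motifs.
E2F1: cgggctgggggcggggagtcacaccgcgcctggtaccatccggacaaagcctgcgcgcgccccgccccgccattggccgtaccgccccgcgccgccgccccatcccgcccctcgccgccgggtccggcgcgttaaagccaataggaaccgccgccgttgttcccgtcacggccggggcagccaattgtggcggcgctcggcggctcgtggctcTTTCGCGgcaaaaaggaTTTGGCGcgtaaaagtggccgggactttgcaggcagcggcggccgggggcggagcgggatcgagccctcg
E2F2: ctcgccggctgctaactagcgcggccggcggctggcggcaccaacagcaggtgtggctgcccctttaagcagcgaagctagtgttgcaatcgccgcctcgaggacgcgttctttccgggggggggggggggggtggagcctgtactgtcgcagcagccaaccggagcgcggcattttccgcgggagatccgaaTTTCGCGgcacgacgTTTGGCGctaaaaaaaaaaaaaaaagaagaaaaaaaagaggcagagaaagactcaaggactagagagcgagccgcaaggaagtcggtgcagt
E2F3: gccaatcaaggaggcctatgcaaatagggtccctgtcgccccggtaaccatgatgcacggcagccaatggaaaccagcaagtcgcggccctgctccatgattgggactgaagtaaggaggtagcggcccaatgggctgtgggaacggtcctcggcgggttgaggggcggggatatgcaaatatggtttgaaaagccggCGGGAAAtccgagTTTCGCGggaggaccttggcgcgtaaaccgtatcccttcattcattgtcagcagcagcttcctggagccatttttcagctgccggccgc
RBL1: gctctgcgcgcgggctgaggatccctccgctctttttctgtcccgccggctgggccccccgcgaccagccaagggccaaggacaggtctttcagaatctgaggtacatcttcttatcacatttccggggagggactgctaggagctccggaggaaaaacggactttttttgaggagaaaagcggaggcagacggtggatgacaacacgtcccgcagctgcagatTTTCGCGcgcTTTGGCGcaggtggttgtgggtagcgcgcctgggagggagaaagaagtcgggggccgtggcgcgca
E2F7: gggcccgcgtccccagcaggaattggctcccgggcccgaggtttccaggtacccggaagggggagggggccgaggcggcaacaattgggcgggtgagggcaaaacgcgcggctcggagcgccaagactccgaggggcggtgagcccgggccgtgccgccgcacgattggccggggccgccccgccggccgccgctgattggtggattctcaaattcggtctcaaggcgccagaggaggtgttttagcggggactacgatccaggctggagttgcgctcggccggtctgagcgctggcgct
These windows lie at chr20:33686336-33686635 (minus strand), chr1:23531184-23531483 (minus strand), chr6:20401629-20401928 (plus strand), chr20:37095948-37096247 (minus strand) and chr12:77065520-77065819 (minus strand).

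The promoters of E2F1, E2F2 and RBL1 each held TTTCGCG followed by TTTGGCG on the same strand within the last 60 bases before the start. The first letter of the upstream copy lay 37, 57 and 26 bases before the start, and the copies were 10, 8 and 3 bases apart, in the order E2F1, E2F2, RBL1. The upstream start of E2F3 held TTTCCCG on the opposite strand, 52 bases before the start, and TTTCGCG at 39 bases, 6 bases apart. The entry at a second E2F3 start, further downstream, held none of the 3 spellings, and neither did E2F4 or E2F7. E2F6 held TTTCCCG in 2 places, 183 and 78 bases before the start and 98 bases apart. Of all 35116 promoter entries, 7.21% held at least 1 of these motifs and 0.507% held 2 or more. A match is a description of these letters and not proof of a bound site.

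A total of 3 transcripts of the family fell after irradiation and none rose, at a threshold of 0.05 on the p-value of limma, fitted to log2(TPM + 1) and adjusted by Benjamini-Hochberg across the 14621 tested genes. They were the activators E2F1 and E2F2 and the atypical repressor E2F8. The background was 10.6% of all tested genes called in either direction, 4.07% called lower and 6.53% called higher. The median log2 change of the 10 members was -0.17, against 0.028 for all 14621 tested genes, and 9 of 10 members lay below 0, where 45.1% of all tested genes did. All levels are in TPM, which states how large a part of the library a transcript made up after division by its length, and read depth is unknown. In a bulk sample, fewer cells that express a gene and less RNA per cell cannot be told apart.

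**Figure D1:**
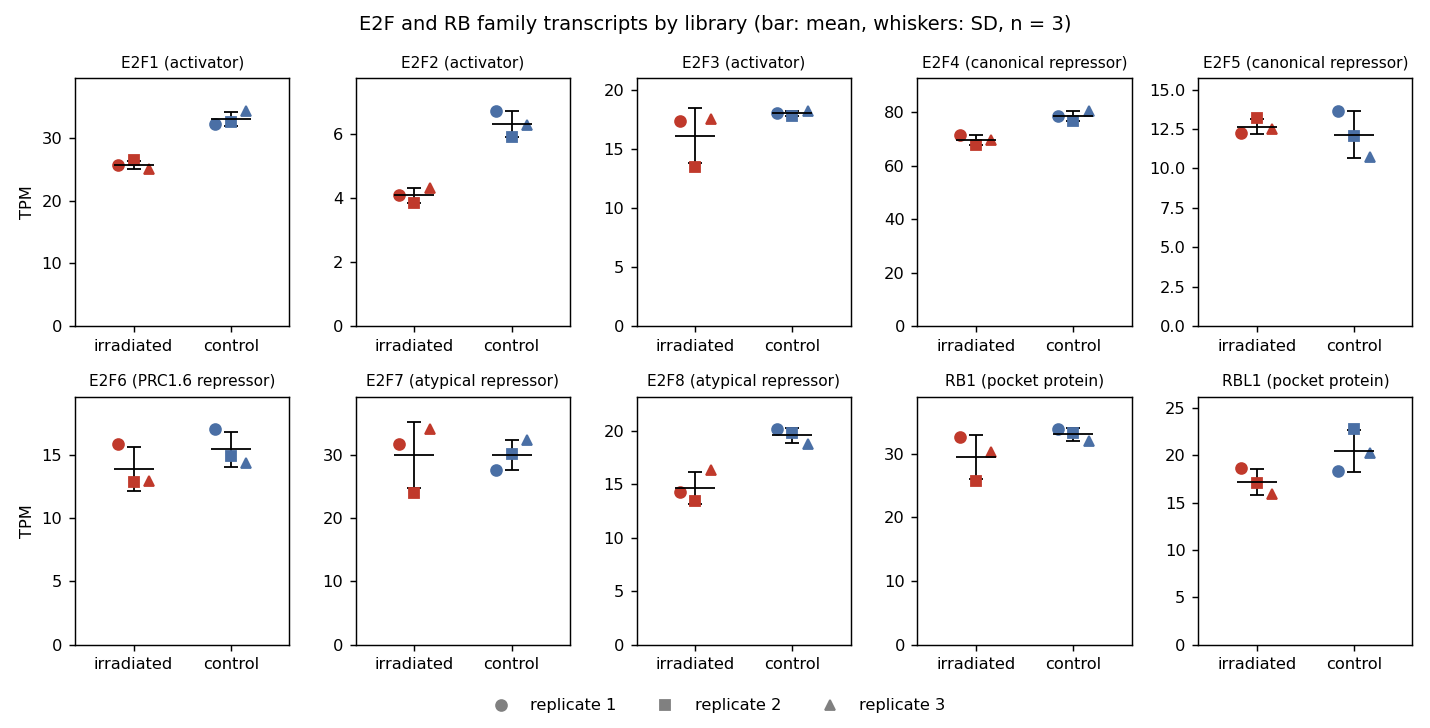
TPM of each of the 10 members (vertical axes, starting at 0) in 3 irradiated and 3 control libraries, with mean and SD. The 2 groups are separate for E2F1, E2F2, E2F3, E2F4 and E2F8 and overlap for E2F5, E2F6, E2F7, RB1 and RBL1. Irradiated replicate 2 is the lowest irradiated library for 7 of the 10 members (E2F2, E2F3, E2F4, E2F6, E2F7, E2F8 and RB1).

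E2F1, the founding activator of the family (ENSG00000101412; chromosome 20, 33675683 to 33686404, minus strand, hg38), stood at 25.7, 26.4 and 25.1 TPM in the irradiated libraries, against 32.2, 32.6 and 34.3 TPM in the control libraries. All 3 irradiated values were below all 3 control values, and the libraries of each group lay close together. Its mean was 25.7 ± 0.651 TPM after irradiation and 33.03 ± 1.14 TPM in controls (SD, n = 3 each), so that the mean TPM fell by 22.1%. The log2 change was -0.35 ± 0.06 (SE; 95% interval -0.48 to -0.21), with an adjusted p of 0.0154 in limma. The call was lost without irradiated replicate 3, control replicate 1 or control replicate 2 (adjusted p of 0.0540, 0.0562 and 0.0626), in fits that also have fewer libraries. Adding the replicate number as a block lost it too (adjusted p = 0.0634, limma).

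E2F2, an activator with a narrower range of expression than E2F1 (ENSG00000007968; chromosome 1, 23506430 to 23531220, minus strand), had the lowest level of the family and the most negative log2 change. It was at 4.08, 3.84 and 4.32 TPM in irradiated cells, against 6.72, 5.91 and 6.29 TPM in control cells. The groups did not overlap. The means were 4.08 ± 0.240 TPM in irradiated and 6.31 ± 0.405 TPM in control libraries (SD, n = 3 each), and the mean TPM fell by 35.3%. The log2 change of -0.52 ± 0.10 (SE; 95% interval -0.77 to -0.28) had an adjusted p of 0.0249 in limma. Since 1 TPM was added before the logarithm, this value understates the change of a gene at this level; with 0.1 TPM added it was -0.62. The call was lost with no filter on low values and in each fit that left out 1 library except the one without irradiated replicate 2 (adjusted p up to 0.0918). Adding the replicate number as a block lost it too (adjusted p = 0.0745, limma).

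E2F3, the activator with 2 promoters, was at 17.4, 13.5 and 17.6 TPM in irradiated libraries and at 18.1, 17.8 and 18.3 TPM in control libraries. Its groups did not overlap either, but irradiated replicates 1 and 3 lay within 1 TPM of the controls and replicate 2 far lower. The log2 change of -0.16 ± 0.11 (SE; 95% interval -0.41 to 0.09) did not pass the test (adjusted p = 0.371, limma), and it was -0.044 without irradiated replicate 2. The table gives 1 value per gene, so transcripts from the 2 starts printed or named above cannot be separated.

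E2F4, the abundant repressor that carries most pocket protein complexes of resting cells (ENSG00000205250; chromosome 16, 67192169 to 67198918, plus strand), was the most abundant member in every library. It was at 71.4, 67.5 and 69.6 TPM in irradiated cells, against 78.6, 76.7 and 80.5 TPM in control cells, with no overlap. The log2 change was -0.18 ± 0.05 (SE; 95% interval -0.28 to -0.07), and its adjusted p of 0.0527 in limma just missed the threshold. It passed with a filter of 5 TPM (adjusted p = 0.0436), after median-ratio scaling (0.0335) and with GC content and length corrected for (0.0389). E2F5, its close relative, was at 12.3, 13.2 and 12.5 TPM in irradiated and 13.7, 12.1 and 10.7 TPM in control libraries. The irradiated values of E2F5 lay within the range of the controls, and its log2 change was 0.060 ± 0.10 (SE; 95% interval -0.18 to 0.29; adjusted p = 0.741, limma).

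E2F6, the pocket-independent repressor, was at 15.8, 12.8 and 12.9 TPM in irradiated cells and at 17.0, 14.9 and 14.4 TPM in control cells. The groups overlapped, and in each of them replicate 1 was the highest. Its log2 change of -0.15 ± 0.11 (SE; 95% interval -0.40 to 0.11) was not called (adjusted p = 0.418, limma). It was -0.24 without irradiated replicate 1 and -0.079 without control replicate 1, and was not called in either fit.

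The atypical repressors E2F7 and E2F8, which are known to act as homodimers and heterodimers on the same G1/S promoters, E2F1's among them, were called in 1 case and not in the other. E2F8 (ENSG00000129173; chromosome 11, 19224063 to 19241620, minus strand) was at 14.3, 13.4 and 16.3 TPM in irradiated cells, against 20.1, 19.8 and 18.8 TPM in control cells. The groups were separate, and the mean fell by 25.1% to 14.6 ± 1.48 TPM in irradiated libraries, against 19.6 ± 0.707 TPM in control libraries (SD, n = 3 each). The log2 change was -0.40 ± 0.09 (SE; 95% interval -0.60 to -0.19; adjusted p = 0.0319, limma). That call was lost with no filter on low values, without irradiated replicate 1 and without any 1 of the controls (adjusted p up to 0.113). Adding the replicate number as a block lost it too (adjusted p = 0.0900, limma).

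E2F7 was at 31.7, 24.0 and 34.0 TPM in irradiated cells and at 27.6, 30.1 and 32.3 TPM in control cells. The irradiated values enclosed the control values, and irradiated replicate 2 alone lay below all of them. Its log2 change was -0.016 ± 0.13 (SE; 95% interval -0.32 to 0.29; adjusted p = 0.952, limma), and 0.13 without irradiated replicate 2 (adjusted p = 0.322). The interval reaches changes in either direction nearly as large as the fall of E2F1, so a change of E2F7 within these bounds was not excluded. The log2 ratio of E2F8 to E2F7 was -1.15, -0.84 and -1.07 in irradiated libraries and -0.46, -0.60 and -0.78 in control libraries. These ratios did not overlap between groups, with a mean difference of -0.41, irradiated minus control; this difference between the 2 genes was not tested.

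RB1, the retinoblastoma tumour suppressor (chromosome 13, 48303726 to 48599436, plus strand), was at 32.6, 25.8 and 30.3 TPM in irradiated and 33.9, 33.3 and 32.0 TPM in control libraries. Its groups overlapped, with irradiated replicate 2 again the lowest. The log2 change of -0.16 ± 0.09 (SE; 95% interval -0.37 to 0.05) was not called (adjusted p = 0.281, limma) and was -0.070 without that library. RBL1, the pocket protein p107 and itself a known E2F target (chromosome 20, 36996349 to 37095995, minus strand), was at 18.7, 17.0 and 15.9 TPM in irradiated and 18.3, 22.8 and 20.2 TPM in control libraries. The groups overlapped through irradiated replicate 1 and control replicate 1. Its log2 change of -0.23 ± 0.10 (SE; 95% interval -0.47 to -0.00) had an unadjusted p of 0.0492 and an adjusted p of 0.177 (limma).

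**Figure D2:**
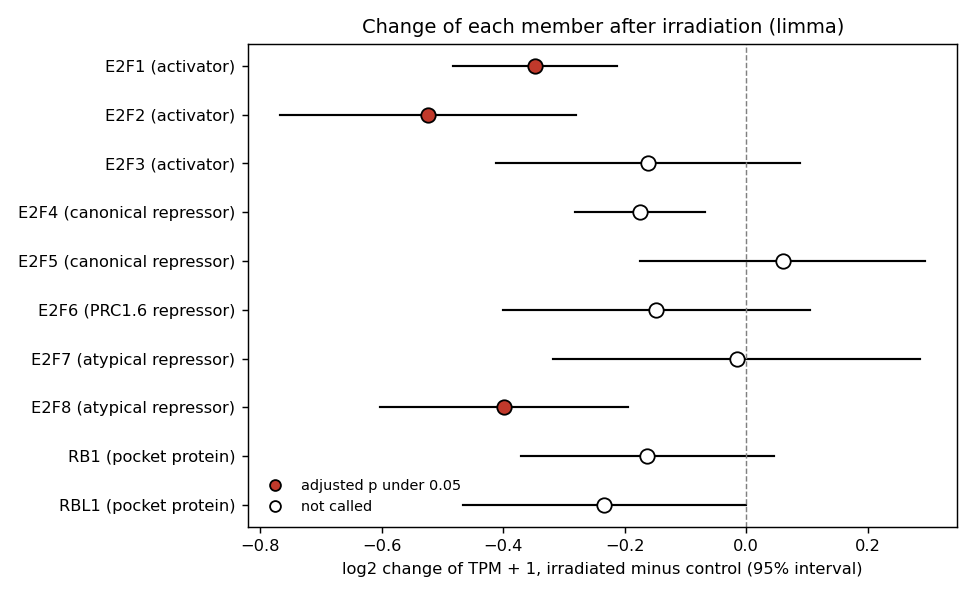
Log2 change of TPM + 1, irradiated minus control (horizontal axis), for each member with its unadjusted 95% interval; filled points passed an adjusted p of 0.05 and open points did not. E2F1 (-0.35), E2F2 (-0.52) and E2F8 (-0.40) are filled, and E2F5 (0.060) is the only member above 0.

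The 5 members E2F1, E2F2, E2F3, E2F4 and E2F8 had no overlap between groups, all of them lower; 34.9% of all tested genes had no overlap in either direction and 14.5% had none and were lower. Irradiated replicate 2 was the lowest irradiated library for 7 of 10 members. It was also the lowest for 54.7% of all tested genes, and its part in the values of the uncalled members is given by the fits without it. Without irradiated replicate 2, E2F1, E2F2 and E2F8 were still called, with log2 changes of -0.37, -0.49 and -0.34.

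The order of the levels was led by E2F4 under both conditions. In irradiated libraries the means then ran from E2F7 (29.9 TPM), RB1 (29.6 TPM) and E2F1 (25.7 TPM) through RBL1 (17.2 TPM), E2F3 (16.2 TPM), E2F8 (14.6 TPM), E2F6 (13.9 TPM) and E2F5 (12.7 TPM) to E2F2 (4.08 TPM). In control libraries they ran from RB1 (33.1 TPM), E2F1 (33.03 TPM) and E2F7 (30.01 TPM) through RBL1 (20.4 TPM), E2F8 (19.6 TPM), E2F3 (18.1 TPM), E2F6 (15.4 TPM) and E2F5 (12.2 TPM) to E2F2 (6.31 TPM). In irradiated cells the ranges of E2F7, RB1 and E2F1 overlapped from neighbour to neighbour, as did those from RBL1 down to E2F5, so their order there is within the spread; gaps lay below E2F4, E2F1 and E2F5. In control cells RB1, E2F1 and E2F7 overlapped in turn, and RBL1 overlapped E2F8, while the other neighbours did not.

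The activators were set against the repressors by summing TPM within each library. E2F1 to E2F3 together made 47.2, 43.7 and 47.0 TPM in irradiated libraries, against 57.0, 56.3 and 58.9 TPM in control libraries. E2F4 to E2F8 together made 145, 131 and 145 TPM in irradiated libraries, against 157, 154 and 157 TPM in control libraries. Both sums were lower in every irradiated library than in any control library. The activators made up 24.5%, 25.0% and 24.5% of all E2F transcripts in irradiated cells and 26.6%, 26.8% and 27.3% in control cells, so their share was lower by a mean difference of -2.27 percentage points.

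The log2 ratio of activator to repressor sums averaged -1.61 ± 0.0254 in irradiated libraries and -1.44 ± 0.0259 in control libraries (SD, n = 3 each), a difference of -0.17. The ratio is taken within a library, so scaling between libraries does not move it, and the low values of irradiated replicate 2 left it at -1.58, beside -1.63 and -1.63 in the other irradiated libraries. It depends on which repressors are counted. Against E2F7 and E2F8 alone the difference was -0.16, and the groups overlapped, since the log2 ratios were 0.03, 0.22 and -0.10 in irradiated and 0.26, 0.17 and 0.20 in control libraries. As these sums were built from members with known values, no test was made.

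**Figure D3:**
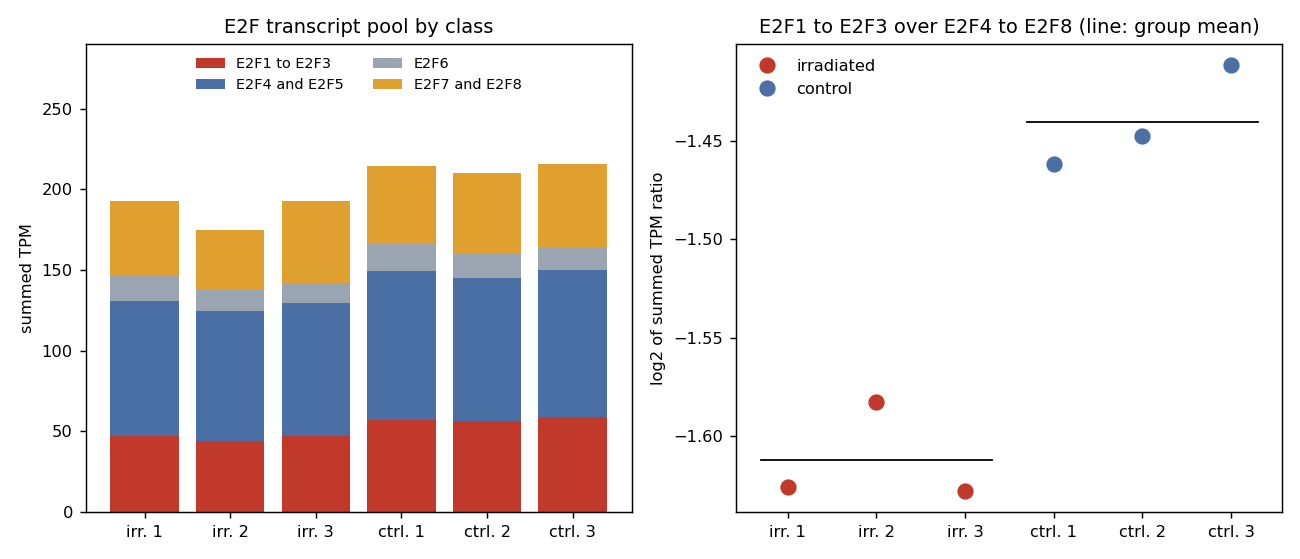
Left, summed TPM of the E2F classes stacked by library (irr., irradiated; ctrl., control; vertical axis from 0). Right, log2 ratio of E2F1 to E2F3 over E2F4 to E2F8 in each library with group means; the irradiated libraries lie between -1.63 and -1.58 and the control libraries between -1.46 and -1.41 (the axis does not start at 0).

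The partners and regulators of the family were counted list by list, and each share can be read against the 4.07% of all tested genes called lower and the 6.53% called higher. Of 3 listed partners, the DP proteins and RBL2, only TFDP1 was called. TFDP1, the main DNA-binding partner of E2F1 to E2F6, fell to 88.4 ± 5.301 TPM in irradiated cells, against 105 ± 4.56 TPM in control cells (SD, n = 3 each; log2 change -0.25 ± 0.06 SE, adjusted p = 0.0388, limma). Its call was lost in 9 of 16 alternative settings. RBL2, the pocket protein of resting cells, was at 12.6, 10.1 and 13.8 TPM in irradiated and 10.2, 9.29 and 10.6 TPM in control libraries (log2 change 0.25 ± 0.12 SE, adjusted p = 0.232, limma). It was the only pocket protein gene with a positive log2 change. Of 7 subunits and partners of the MuvB core, which joins E2F4 and RBL2 in the DREAM repressor complex, RBBP4 alone was called and was lower (75.5 ± 7.70 TPM in irradiated and 93.4 ± 2.96 TPM in control cells; log2 change -0.31 ± 0.08 SE, adjusted p = 0.0467, limma). RBBP4 also belongs to many other chromatin complexes, and its call was lost in 7 of 16 alternative settings. The MuvB partners of the later cell cycle, MYBL2 (log2 change 0.02 ± 0.04, adjusted p = 0.771) and FOXM1 (log2 change -0.11 ± 0.07, adjusted p = 0.316), were not called.

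Of 10 Polycomb partners of E2F6, none was called by limma, 4 had an unadjusted p under 0.05, and the median log2 change was -0.11. The most abundant were CBX3, a heterochromatin protein (log2 change -0.11 ± 0.04, adjusted p = 0.155), and MAX, the dimer partner of MYC and MGA (log2 change -0.27 ± 0.08, adjusted p = 0.0731); MAX passed after median-ratio scaling (0.0347) and after quantile normalization. Of 13 chromatin factors and phosphatases known to bind RB1, 3 were lower and none higher, with a median of -0.13. PPP1CC, a phosphatase subunit that can dephosphorylate RB1, fell (log2 change -0.26 ± 0.05, adjusted p = 0.0222), and so did the deacetylase HDAC2 (-0.23 ± 0.04, adjusted p = 0.0214) and the maintenance DNA methyltransferase DNMT1 (-0.19 ± 0.05, adjusted p = 0.0490). These 3 calls were lost in 7, 8 and 12 of 16 alternative settings.

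Upstream of the pocket proteins, 16 G1 cyclin, kinase and inhibitor genes were listed and 13 tested, with a median log2 change of 0.00. CDKN2A and CDKN2B, inhibitors of the cyclin D kinases, were listed at 0 in all 6 libraries. CCNE2, a cyclin of the kinase that completes RB1 phosphorylation, fell to 12.8, 10.5 and 14.2 TPM in irradiated cells, against 18.4, 20.0 and 19.3 TPM in control cells (log2 change -0.60 ± 0.11 SE, adjusted p = 0.0207, limma). The other called members were CDC25A, the phosphatase that activates CDK2 (log2 change -0.26 ± 0.06, adjusted p = 0.0370), CDKN2D, an inhibitor of CDK4 and CDK6 (-0.37 ± 0.09, adjusted p = 0.0426), which were lower, and CDKN1A, the p21 inhibitor of CDK2 (0.27 ± 0.07, adjusted p = 0.0482), which was higher. These 4 calls were lost in 5, 9, 10 and 13 of 16 alternative settings, in that order. CCNE1 (0.12 ± 0.11, adjusted p = 0.509), CDK2 (0.00 ± 0.06, adjusted p = 1.00) and CCND1 (0.26 ± 0.07, adjusted p = 0.0631) did not pass.

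Of 6 genes that govern the turnover of E2F or pocket proteins, 2 fell. CDC20, which activates the anaphase-promoting complex in mitosis, was at 156, 153 and 149 TPM in irradiated cells, against 205, 202 and 209 TPM in control cells (log2 change -0.43 ± 0.04 SE, adjusted p = 0.00328, limma), and was called in all 16 alternatives. SKP2, the F-box protein that marks p27 and has been linked to E2F1 turnover, was at 25.3, 21.8 and 25.5 TPM in irradiated cells, against 32.3, 31.9 and 30.5 TPM in control cells (log2 change -0.37 ± 0.08 SE, adjusted p = 0.0265, limma), a call lost in 8 of 16 alternatives. CCNF, the F-box cyclin that marks E2F1, E2F7 and E2F8 for degradation, was at 20.4, 20.7 and 21.8 TPM in irradiated and 18.7, 18.6 and 19.2 TPM in control libraries. Its groups did not overlap, but its log2 change of 0.15 ± 0.06 was not called (adjusted p = 0.183, limma).

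Many targets that the activators are known for were lower. Of 51 listed G1/S targets of E2F, 20 fell and 1 rose, against 4.07% and 6.53% of all tested genes, and their median log2 change was -0.19. The list was written with earlier results of these data known, so its difference from all tested genes is not a separate test. With 1 irradiated library left out, replicate 1, 2 or 3, the number of falls was 14, 18 and 14, and it was 12 whichever control was omitted. The helicase gene MCM6 was at 25.1, 22.9 and 26.03 TPM in irradiated libraries, against 49.0, 47.2 and 49.2 TPM in control libraries (log2 change -0.95 ± 0.06 SE, adjusted p = 0.00177, limma). UNG, which removes uracil from DNA, was at 61.1, 59.8 and 60.5 TPM in irradiated libraries, against 101, 94.1 and 100 TPM in control libraries (log2 change -0.69 ± 0.05 SE, adjusted p = 0.00177, limma). MCM6, MCM5 (log2 change -0.77) and UNG were called in all 16 alternatives, and their log2 changes were more negative than that of any member. BRCA1, of homologous recombination, was the listed target that rose (log2 change 0.36 ± 0.07, adjusted p = 0.0270, limma). That call was lost without irradiated replicate 1 or 3 and without control replicate 1 or 2. It was also lost with no filter on low values and with the replicate number as a block. Without irradiated replicate 2, 3 listed targets were called higher.

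Not all classical targets were lower. The replication licensing genes CDC6 (log2 change 0.03 ± 0.05, adjusted p = 0.724) and CDT1 (0.07 ± 0.06, adjusted p = 0.483) and the S phase cyclin gene CCNA2 (0.02 ± 0.08, adjusted p = 0.916) were not called, and their groups overlapped. CDC6 was at 108, 99.5 and 109 TPM in irradiated and 106, 101 and 103 TPM in control libraries. These targets were listed with earlier results of these data known, and several of them also belong to the G1 list above.

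**Figure D4:**
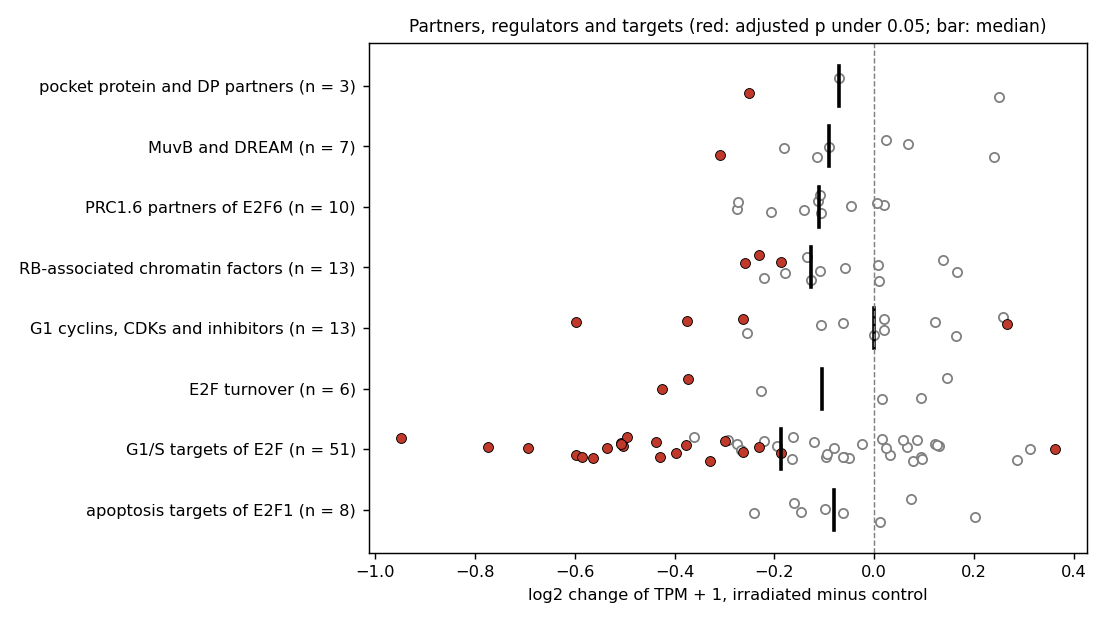
Log2 change of TPM + 1, irradiated minus control (horizontal axis), of the tested genes of 8 lists of partners, regulators and targets; red points passed an adjusted p of 0.05, open points did not, and bars are medians. The G1/S targets spread furthest below 0, with a median of -0.19, while the G1 cyclins, kinases and inhibitors have a median of 0.00.

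The G1/S list was also divided by the E2F-type motifs marked above. Promoter entries were found for 45 of the 51 listed targets, and 28 of these held at least 1 of the 3 spellings in a window. CCNE2, MCM4 and MCM5, which were called lower, had no entry and lie outside this split. Of those 28, 15 fell and none rose, with a median log2 change of -0.27; of the 17 without a match, 2 fell and 1 rose, with a median of 0.02. Among those that fell, MCM6 held 4 matches, CDC25A, DUT, MCM2, MCM3, MCM7 and UHRF1 held 2, and UNG held 1. CDC6, CDT1, POLA2, POLE2 and HELLS held 2 each and were not called, so a match did not go with a fall in every listed gene. The split was made after the values were known, and its part in the falls was not tested. Its spellings were chosen after the promoters had been read.

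Among all 10263 tested genes with a promoter entry, 4.38% were called lower and 6.78% higher. The 1478 with at least 1 match had 6.63% lower and 5.28% higher, and the 116 with 2 or more had 12.1% lower (14 genes) and 6.90% higher (8 genes), with a median log2 change of -0.08. E2F1 and E2F2 are among the 14 lower genes, and so are the listed targets CDC25A, MCM2, MCM3, MCM6, MCM7, DUT and UHRF1. Most of the 14 are thus members or listed targets, and the 12.1% is not independent of the split of the G1/S list above. The spellings were also chosen after the promoters had been read, so this share is not a separate test of the motifs. E2F3 and RBL1, whose windows also hold 2 matches, and E2F6 were not called.

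Genes with the pattern most like a called member were found among 10067 tested genes with a symbol and a mean of at least 5 TPM, by the root mean square difference over the 6 libraries of log2(TPM + 1) centred on each gene's mean. E2F1 was most like IGFBP4 (0.0197), PHC2 (0.0275) and CDCA4 (0.0282). IGFBP4 was at 219, 228 and 223 TPM in irradiated libraries, against 278, 282 and 290 TPM in control libraries. E2F2 was most like NCOA7 (0.0288), PPP3CB (0.0372) and PRR7 (0.0384), and E2F8 was most like NCL (0.0285), FBXO45 (0.0290) and PRPF38B (0.0296). All 9 were called lower, which follows largely from choosing them by likeness to a called member, and nothing about shared control was examined.

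**Figure D5:**
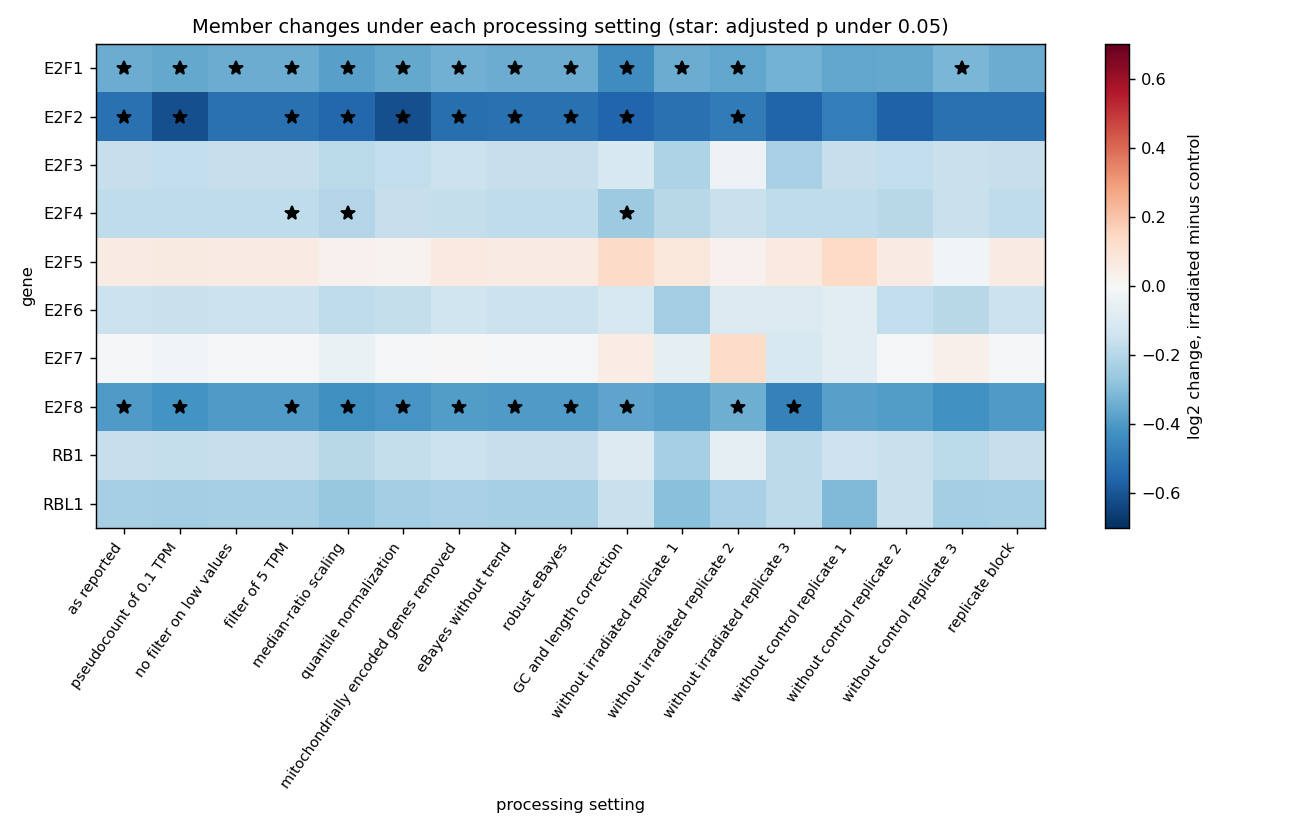
Log2 change of each member, irradiated minus control (colour scale), under the reported setting and 16 alternatives (columns); stars mark an adjusted p under 0.05. E2F1, E2F2 and E2F8 are below 0 in every column, while E2F7 and E2F5 change sign in 3 columns and 1 column.

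Across the series, 14592 to 14889 genes reached 1 TPM in irradiated libraries, against 14248 to 14417 in control libraries. Replicates correlated at 0.980 to 0.988 within groups and libraries at 0.976 to 0.982 between groups on log2(TPM + 1), across genes. The line's markers VIM, CD44, AXL and KRT18 were present, at 2293 to 2351 TPM in sum in irradiated and 2699 to 2769.7 TPM in control libraries, while ESR1 and PGR, the hormone receptor genes, were at or near 0. Of 6 markers of other cell types, CD3E and DCN were at or near 0 in every library, and PECAM1, an endothelial gene, lay between 0.87 and 1.5 TPM. COL1A1, a collagen gene of fibroblasts, was at 12.2, 8.99 and 13.2 TPM in irradiated libraries and 9.75, 6.69 and 9.67 TPM in control libraries, with overlap (adjusted p = 0.239, limma). The summed level of the 6 was 107 to 146 TPM in irradiated and 70.0 to 77.9 TPM in control libraries. CD68, a lysosomal gene that tumour lines also express, made up most of this sum and rose (log2 change 0.58 ± 0.06, adjusted p = 0.00391, limma). PTPRC, the leukocyte gene CD45, was at 40.4 TPM in irradiated replicate 1 and below 1 TPM in the other 5 libraries; the part of that library in the calls of the family is given by the fits without it.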

How the data were processed

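Total RNA (1 μg) was made into libraries with a TruSeq kit, per the labels' protocols, which name neither strand nor RNA selection. The submitters' processing notes name HISAT2, StringTie, RSEM and the build hg38, without versions or order. Values are TPM, deposited by the authors in 1 table with 61280 rows and 6 libraries; depth cannot be recovered from TPM and no scaling between libraries is recorded.

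Groups came from the sample titles. No replicate pair shared more than 0.479% identical values among tested rows, and all 6 libraries were used. Rows with at least 1 TPM in at least 3 libraries (14621) were compared on log2(TPM + 1) with limma 3.58.1 in R 4.3.3 (eBayes with trend; residual df 4, prior df 3.39) in two-sided tests; p-values were adjusted by Benjamini-Hochberg over all tested rows, with a threshold of 0.05. Coordinates (1-based), transcript lengths and GC content came from GENCODE 29, on the same assembly as hg38, and promoters from RefSeq (GRCh38.p14). The fit was tried on a simulated table with known changes, drawn with independent noise for each gene and without an outlying library.

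The members and the 9 gene lists (115 distinct genes), which share genes, were chosen with earlier results of these data known. Named were all members, in each list up to 4 called genes with the largest changes or the 2 most abundant where none was called, and the 3 genes most like each called member. Others named, among them RBL2, CCND1, CCNE1, CDK2, CCNF, CDC6, CDT1, CCNA2, MYBL2, FOXM1, BRCA1, PTPRC and the genes named for their motifs, were chosen after their values were seen. Alternatives changed the pseudocount (0.1 TPM), the filter (none, or 5 TPM), the scaling (median-ratio, quantile, or mitochondrial transcripts dropped) and the eBayes step (robust, or no trend), removed a cubic dependence on GC and length within each library, omitted each library in turn, or added the replicate number as a block.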

Additional observations from a re-analysis of the deposited data

How the results depend on the processing

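E2F1, E2F2 and E2F8 were lower in all 16 alternatives and called in 12, 9 and 10 of them. The 3 calls among the 10 members became 4 with E2F4 (GC and length correction, median-ratio scaling, or a filter of 5 TPM) and 1 when every detected row was kept, where 32164 rows share the adjustment and 4 members had an unadjusted p under 0.05. With 1 library left out the count ran from 0 to 3: it was 3 without irradiated replicate 2, 1 without irradiated replicate 1, irradiated replicate 3 or control replicate 3, and 0 without control replicate 1 or 2, where 5 and 4 members had an unadjusted p under 0.05 in limma. The count of all called genes, 1550 as reported, was 497 without the filter, 993 with eBayes without trend, and 346 to 1414 with 1 library left out (355, 346 and 799 for control replicates 1, 2 and 3, and 700 and 521 for irradiated replicates 1 and 3). Median-ratio scaling gave 778 higher and 852 lower calls, where 955 and 595 were reported. E2F7 changed sign (0.054) once GC and length were corrected for, and with 1 library left out it ran from -0.11 to 0.13, above 0 without irradiated replicate 2 (0.13) or control replicate 3 (0.038). E2F5 ran from -0.021, without control replicate 3, to 0.14; none of these values was called. The activator to repressor difference of -0.17 was -0.21 as a mean of logs, and ran from -0.19 to -0.16 with 1 library left out. For E2F1 and E2F2 over E2F7 and E2F8 it was -0.24, but the groups overlapped. Those log2 ratios were -0.63, -0.31 and -0.77 in irradiated and -0.29, -0.38 and -0.33 in control libraries. The cause of these shifts was not tested.

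The replicate numbers are shared by the groups, but the deviations of same-numbered libraries from their group means correlated at 0.03, -0.06 and -0.03, so they were not read as pairs. With the replicate block, 362 genes and 0 members were called (4 members had an unadjusted p under 0.05 in limma).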

Other observations

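Targets linked to other branches of the family were listed separately from the G1/S genes. Of 9 genes of apoptosis known to be raised by E2F1, 8 were tested, none was called by limma and 1 had an unadjusted p under 0.05, with a median log2 change of -0.08. SIVA1, a pro-apoptotic adaptor gene, was at 129, 132 and 124 TPM in irradiated libraries and 114, 112 and 141 TPM in control libraries (adjusted p = 0.623, limma). CASP8, the initiator caspase gene, was at 41.9, 39.2 and 38.3 TPM in irradiated libraries and 38.5, 32.9 and 32.2 TPM in control libraries (adjusted p = 0.151, limma). TP73, a p53 relative and classical E2F1 target, was near 1 TPM in both groups and was not tested.

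Of 6 genes listed as germline or neuronal targets of E2F6 in mouse cells, only STAG3 and TUBB3 reached the filter. Whether TUBB3 is a target of E2F6 was not examined here. TUBB3, a neuronal tubulin, rose to 116, 123 and 122 TPM in irradiated libraries, against 97.1, 91.0 and 99.4 TPM in control libraries (log2 change 0.33 ± 0.05 SE, adjusted p = 0.0128, limma); its call was lost without control replicate 2 (adjusted p = 0.0510) and with the replicate block (adjusted p = 0.0506). STAG3, a meiotic cohesin subunit, was at 1.31, 1.18 and 1.23 TPM in irradiated libraries and 0.80, 1.01 and 0.43 TPM in control libraries; its groups did not overlap, but it was not called (adjusted p = 0.204, limma). E2F6 itself was not called.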
